A study of Homo sapiens with 15 samples.

Results

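SOX9, SOX4, SOX2, SOX6, SOX12 and SOX13, 6 genes of the SOX family of transcription factors, were followed in human cells with an induced intracellular domain of each of the NOTCH receptors. The 6 genes were a named set, found by matching the Ensembl identifiers of the count table to gene symbols, and are 6 of 31352 identifiers. All 6 had a row, and SOX9, SOX4, SOX12 and SOX13 held enough reads to be among the 15122 genes tested. RNA was measured by polyA RNA-seq in 15 libraries, with n = 3 in each of 5 groups. The cells labelled NICD1, NICD2, NICD3 and NICD4 had doxycycline-induced expression of an intracellular domain, taken from NOTCH1 to NOTCH4 in turn, and the EV cells were their isogenic empty vector control. The labels give HCT116, a colorectal carcinoma line, as the cell in every group, whereas U373, a glioma line, stands in the descriptions of the samples. Neither the concentration of doxycycline nor the time of exposure is stated, nor whether the EV cells were exposed. Separate cultures are not stated either, so that the p-values reflect how much the libraries of a group differ, and this may be technical. NICD4 replicate 1 is called NICD3 in some label fields and NICD4 in its title and description, and was kept in NICD4. Without it the log2 differences of NICD4 from EV were 1.84 for SOX9, 0.80 for SOX13 and 0.40 for SOX12, all still called, where that of SOX12 turned round with the GC trend removed.

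SOX proteins bind DNA through an HMG box, a domain that sits in the minor groove and bends the helix, and they act mostly together with partner factors. Members of one subgroup share most of their HMG box and often act on the same sites, and subgroups differ in whether they activate, repress or compete. A NOTCH receptor that is cleaved releases its intracellular domain, which joins the DNA-binding protein RBPJ in the nucleus and switches on target genes such as the HES repressors. In the intestine SOX9 is known as a factor of crypt progenitors and Paneth cells, and in cartilage as the master regulator of chondrocytes.

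The coding bases that open the HMG box show how the 6 genes are related. Each stretch of 60 bases below is from a GENCODE 29 transcript on GRCh38, and capitals mark the 28 bases that are identical in all 6. They lie at chr17:72121710-72121769 (plus strand, exon 1 of 3) for SOX9, chr6:21594715-21594774 (plus strand, the single exon) for SOX4 and chr20:326048-326107 (plus strand, the single exon) for SOX12. Those of SOX13 lie at chr1:204123705-204123764 (plus strand, exon 12 of 14), those of SOX6 at chr11:15989037-15989096 (minus strand, exon 14 of 16) and those of SOX2 at chr3:181712487-181712546 (plus strand, the single exon).
SOX9: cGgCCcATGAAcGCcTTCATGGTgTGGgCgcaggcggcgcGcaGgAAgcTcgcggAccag
SOX4: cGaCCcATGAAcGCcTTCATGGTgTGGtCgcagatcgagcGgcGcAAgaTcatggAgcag
SOX12: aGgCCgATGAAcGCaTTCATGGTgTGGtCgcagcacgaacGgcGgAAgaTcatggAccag
SOX13: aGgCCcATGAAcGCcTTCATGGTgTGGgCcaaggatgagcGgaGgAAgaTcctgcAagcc
SOX6: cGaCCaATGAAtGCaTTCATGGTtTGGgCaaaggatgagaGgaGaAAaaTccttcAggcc
SOX2: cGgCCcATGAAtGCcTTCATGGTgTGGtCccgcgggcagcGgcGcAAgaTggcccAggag
Over 222 bases from the same start, SOX4 and SOX12 were identical at 83.3% of bases and SOX6 and SOX13 at 79.3%, the pairs of closest relatives. SOX9 shared 73.4% of these bases with SOX4 and 56.3% with SOX6. SOX6 was near the detection limit in every group where SOX13 was not.

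The libraries held 11630195 to 27704492 counted reads. HES1, a direct target of NOTCH that reports on the pathway, differed from EV on the log2 scale by 1.03, 2.43, 1.32 and 1.55 in NICD1, NICD2, NICD3 and NICD4. Most receptor genes gave no check of the labels. NOTCH2 was higher, at 40.2 to 42.8 CPM in NICD2 against 30.3 to 32.9 CPM in EV, but it was also at 39.8 to 40.5 CPM in NICD4. NOTCH1 lay at 26.9 to 30.2 CPM in NICD1 against 28.4 to 31.99 CPM in EV, NOTCH3 at 11.5 to 11.9 CPM in NICD3 against 9.60 to 11.2 CPM in EV, and NOTCH4 at 1.81 to 2.22 CPM in NICD4 against 1.31 to 2.14 CPM in EV. CPM, the usual unit of counts relative to library size, rests here on library sizes scaled by trimmed mean of M values (TMM). The colorectal marker genes KRT8, KRT18, KRT19, EPCAM, CDH1, CLDN7 and CDX2 were read in every group, CDX2 at 17.7 CPM in EV. VIL1 averaged at most 1.44 CPM, and LGALS4 and CDX1 were at or near 0. Of the astrocyte and glioma markers, OLIG2, AQP4, S100B, SLC1A2 and PTPRZ1 were at or near 0. GFAP averaged 0.981 to 4.38 CPM and BCAN 2.87 to 9.53 CPM across the groups. SLC1A3 averaged 14.1 to 50.2 CPM and NES 21.97 to 36.2 CPM, and ALDH1L1 reached 29.97 CPM in NICD3. Summed, the colorectal markers held at least 2126 CPM in every library, largely from the keratins. The astrocyte and glioma markers held at most 87.4 CPM. No line was assigned from these values. The differences from EV also went with the GC content of the transcripts. In the lowest of 5 GC classes of genes the median log2 difference from EV was -0.67, -0.33, -0.54 and -0.87 in NICD1, NICD2, NICD3 and NICD4, and in the highest it was 0.69, 0.36, 0.54 and 0.98. Values with this trend removed are therefore given beside the differences from EV of the 4 tested SOX genes of the set. For the other SOX genes and the named genes of the lists they are given at least where a call changed. Elsewhere the size of a difference may still depend on the trend. Of the genes called in NICD1, NICD2, NICD3 and NICD4, 47.2%, 49.7%, 47.8% and 46.2% were higher than in EV, and with scaling by total reads only 28.05%, 29.9%, 26.7% and 29.2% were.

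All 4 comparisons with EV share its 3 libraries. A call is an adjusted p under 0.05 by limma, with Benjamini-Hochberg adjustment over all 15122 genes of a comparison. In NICD1, 3 of the 4 tested SOX genes (SOX9, SOX13 and SOX12, of which SOX12 turned round with the GC trend removed) were called higher and 1 (SOX4) lower, where 35.6% of all genes were called higher and 39.8% lower. In NICD2, 2 (SOX9, SOX13) were called higher and 1 (SOX4) lower, against 29.6% and 29.9% of all genes. In NICD3 the counts were again 2 (SOX9, SOX13) and 1 (SOX4), against 33% and 36.2% of all genes. In NICD4, 3 (SOX9, SOX13, SOX12) were called higher and 0 lower, against 37.4% and 43.6% of all genes, and SOX12 turned round with the GC trend removed or with scaling by total reads. With such shares of all genes called, being called is not in itself a result about a SOX gene. The same holds for NICD libraries that all lie above or below those of EV. The share of all genes that separate in this way is not given here. The median log2 difference of the 4 tested genes was 0.91, 0.44, 0.60 and 0.67 in NICD1, NICD2, NICD3 and NICD4, against -0.083, -0.032, -0.067 and -0.12 over all genes.

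**Figure D1:**
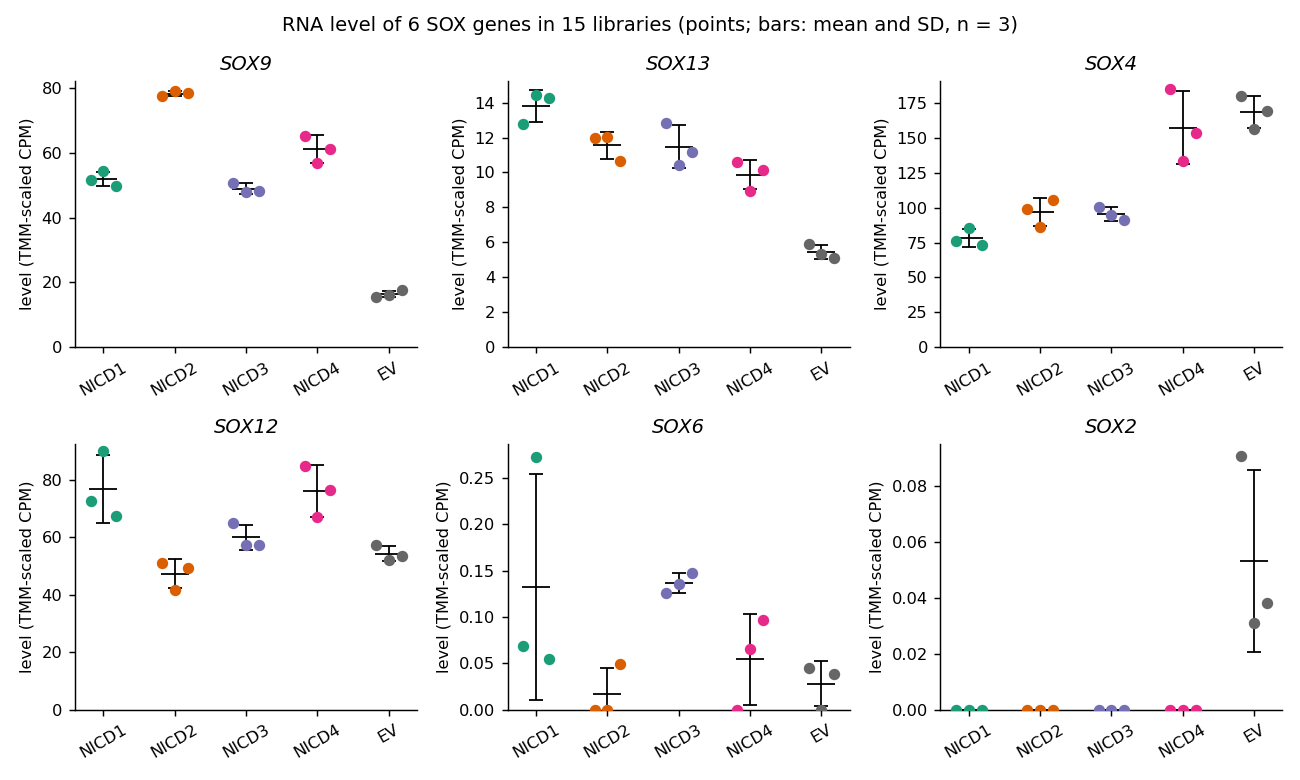
Level of the 6 SOX genes in TMM-scaled CPM (vertical axes, linear from 0, a different range in each panel) in the NICD1, NICD2, NICD3, NICD4 and EV groups. Points are the 15 libraries and bars the mean and SD of 3. All 12 NICD libraries lay above all 3 EV libraries for SOX9 and SOX13, and SOX2 and SOX6 reached at most 0.0906 and 0.273 CPM in any library.

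SOX9 (ENSG00000125398, chromosome 17, 70117161 to 70122561 on GRCh37) showed the largest differences from EV of the 4 tested genes. It stood at 51.7, 54.3 and 49.9 CPM in NICD1, 77.7, 79.0 and 78.5 CPM in NICD2, 50.8, 47.9 and 48.3 CPM in NICD3 and 65.4, 56.8 and 61.3 CPM in NICD4, against 15.6, 16.2 and 17.5 CPM in EV. All 12 NICD libraries were above all 3 EV libraries, and the 3 NICD2 libraries were above every other one. SOX9 rose in each NICD group. The log2 difference from EV was 1.66, 2.25, 1.58 and 1.89 in NICD1, NICD2, NICD3 and NICD4 (SE 0.073 each; limma adjusted p = 1.8e-10, 1.4e-11, 3.2e-10 and 8.1e-11). These are 3.16-fold, 4.77-fold, 2.98-fold and 3.72-fold higher levels. In bulk RNA, a different share of cells with SOX9 RNA and a different amount of it per cell cannot be told apart.

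The place of SOX9 among all tested genes also differed by group. Of the 15122 genes, 1.53% had a higher log2 difference from EV than SOX9 in NICD2, 5.24% in NICD3, 6.49% in NICD1 and 7.3% in NICD4. SOX9 transcripts have a GC content of 51.0%, in the middle GC class, whose median log2 differences were between -0.12 and -0.015. Without that trend the differences of SOX9 were 1.58, 2.20, 1.5002 and 1.83, and each stayed called. Leaving out any 1 library kept them between 1.54 and 2.30.

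The NICD groups differed in their SOX9 level, and the receptor and the amount of its induced domain cannot be told apart here. An F-test over the 4 NICD groups called SOX9 (limma adjusted p = 1.9e-05), as it called 67.9% of all genes. The order of the levels was NICD2, NICD4, NICD1, NICD3 and then EV, and 5 of the 6 pairs of NICD groups were called. NICD2 exceeded NICD1 by 0.59 on the log2 scale (adjusted p = 4.5e-05, with 37.2% of all genes called in that pair). NICD3 was below NICD2 by a log2 difference of -0.68 (adjusted p = 1.8e-05, 15% of all genes called), and NICD4 was below NICD2 by -0.36 (adjusted p = 0.00070, 63.5% called). NICD4 exceeded NICD3 by 0.32 (adjusted p = 0.0031, 49% called) and NICD1 by 0.23 (adjusted p = 0.029, 27.2% called). The last of these calls was lost without NICD4 replicate 1 (0.18, adjusted p = 0.11), NICD4 replicate 3 (0.23, adjusted p = 0.070), NICD1 replicate 1 (0.23, adjusted p = 0.085) or NICD1 replicate 3 (0.20, adjusted p = 0.11). NICD3 and NICD1 overlapped, with a difference of -0.084 and a 95% interval from -0.24 to 0.072 (adjusted p = 0.51, 6.72% of all genes called in that pair).

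SOX9-AS1 (ENSG00000234899), a long noncoding RNA gene whose span from 70067183 to 70216859 holds all of SOX9, moved in the same direction. It had 33, 39 and 35 reads in NICD1, 33, 33 and 34 in NICD2, 32, 52 and 42 in NICD3 and 27, 30 and 22 in NICD4, against 4, 1 and 4 in EV. No NICD library overlapped EV. Its level averaged 2.28 ± 0.375, 1.74 ± 0.439, 1.97 ± 0.406 and 2.18 ± 0.244 CPM in NICD1, NICD2, NICD3 and NICD4, against 0.122 ± 0.0799 CPM in EV (SD, n = 3 each). The log2 difference from EV was 3.85, 3.45, 3.63 and 3.79 (SE 0.33; limma adjusted p = 1.7e-07, 7.4e-07, 3.5e-07 and 1.4e-07). Between 0.317% and 0.45% of all genes had a higher one. SOX9-AS1 passed the filter for testing, 0.548 CPM in 3 libraries, only through the NICD libraries. Its calls and its place among all genes therefore follow in part from the filter. The library kit as described does not state strand, and reads of SOX9 and of the antisense gene may not be told apart where they overlap. SOX9-AS1 was, unlike SOX9, called in 0 of the 6 pairs of NICD groups (limma F-test adjusted p = 0.67).

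**Figure D2:**
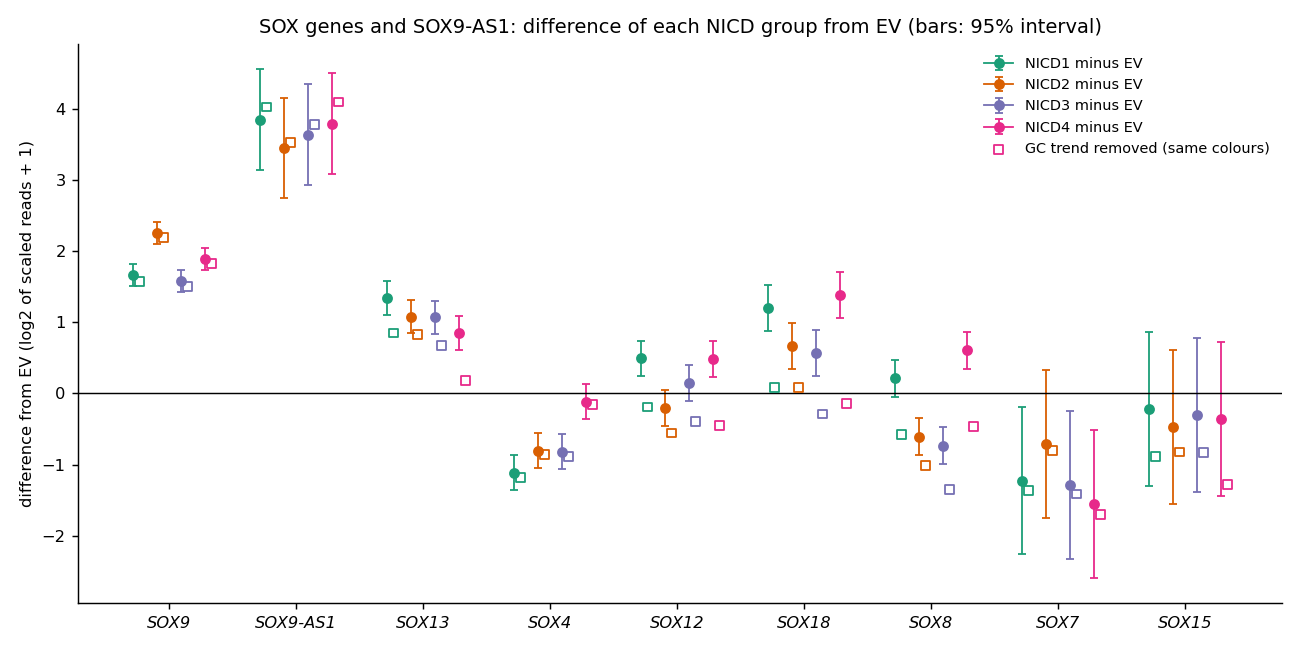
Log2 difference of each NICD group from EV (vertical axis, log2 of scaled reads plus 1) for 8 tested SOX genes and SOX9-AS1. Filled circles with bars are the estimate and its 95% interval, and open squares the same difference with the trend on transcript GC content removed. The marks of SOX9 and SOX4 lie within 0.1 of each other, whereas those of SOX12, SOX18 and SOX8 shift down, and SOX12 and SOX8 lie below 0 in every group once the trend is removed.

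SOX13 (ENSG00000143842, chromosome 1, 204042243 to 204096863) belongs with SOX6 to a subgroup of SOX factors that lack a transactivation domain and modulate other factors, among them TCF1 in T cells. It stood at 12.8, 14.5 and 14.3 CPM in NICD1, 11.95, 12.02 and 10.7 CPM in NICD2, 12.8, 10.4 and 11.2 CPM in NICD3 and 10.6, 8.93 and 10.1 CPM in NICD4, against 5.89, 5.34 and 5.09 CPM in EV. Every NICD library was above every EV library, and the NICD1 libraries were highest on average. SOX13 rose by a log2 difference of 1.34, 1.08, 1.07 and 0.85 in NICD1, NICD2, NICD3 and NICD4 (SE 0.11; limma adjusted p = 1.1e-07, 1.4e-06, 1.3e-06 and 5.2e-06). SOX13 transcripts have a GC content of 58.5%, in the highest GC class. With the GC trend removed the differences were 0.85, 0.83 and 0.68 in NICD1, NICD2 and NICD3, still called, and 0.19 in NICD4, which was not (adjusted p = 0.14). How far the GC trend is part of the NICD4 difference was not tested further.

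Among the NICD groups SOX13 ran in an order of its own, with NICD1 highest and NICD4 lowest. The F-test called it (limma adjusted p = 0.011), as it called 67.9% of all genes. Of the 6 pairs 1 was called, NICD4 below NICD1 by a log2 difference of -0.49 (adjusted p = 0.0063, 27.2% of all genes called). That call was lost when the fit held only the libraries of those 2 groups (-0.48, adjusted p = 0.056). NICD2 and NICD3 overlapped, with a difference of -0.012 for NICD3 minus NICD2 and a 95% interval from -0.25 to 0.22. With the GC trend removed, NICD4 was also called below NICD2 (-0.65) and NICD3 (-0.49).

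SOX6 (ENSG00000110693, chromosome 11, 15987995 to 16761138), which works with SOX5 and SOX9 in cartilage, had 20 reads in all 15 libraries. NICD1 held 6 of them, NICD2 held 1, NICD3 held 9 and NICD4 held 2, against 2 in EV, so that the gene was near the detection limit in every group. The ratio of NICD3 to EV was 5.57 with an exact 95% binomial interval from 1.15 to 53.0, and that of NICD1 to EV was 5.09 with an interval from 0.91 to 51.6. Such intervals cover counting error only. The long SOX6 span also overlaps C11orf58, which had 24489 reads. No call was made on these counts.

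SOX4 (ENSG00000124766, chromosome 6, 21593972 to 21598847), an activator of the subgroup that it shares with SOX12 and known for roles in lymphocyte and neuronal development and in the response to TGF-beta, was lower in the groups labelled NICD1, NICD2 and NICD3. It stood at 76.1, 85.2 and 73.2 CPM in NICD1, 99.5, 85.9 and 106 CPM in NICD2, 101, 95.1 and 91.1 CPM in NICD3 and 185, 133 and 154 CPM in NICD4, against 180, 157 and 170 CPM in EV. The NICD1, NICD2 and NICD3 libraries lay below all EV libraries. Of the NICD4 libraries, 1 lay above all of EV and 2 below. SOX4 fell by a log2 difference of -1.11 in NICD1, -0.80 in NICD2 and -0.82 in NICD3 (SE 0.11; limma adjusted p = 1.0e-06, 4.0e-05 and 2.2e-05). In NICD4 the difference was -0.11 with a 95% interval from -0.36 to 0.13 (adjusted p = 0.37), and with scaling by total reads only it was -0.66 and called.

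The NICD4 value of SOX4 rested on single libraries. It was -0.24 (adjusted p = 0.045) without NICD4 replicate 1, the library with the mixed label, and 0.00049 (adjusted p = 0.997) without NICD4 replicate 2. NICD4 exceeded NICD1 by 1.00, NICD2 by 0.69 and NICD3 by 0.71 on the log2 scale (limma adjusted p = 3.3e-05, 0.00019 and 0.00041). The difference between NICD4 and each other NICD group was thus itself called, in pairs where 27.2%, 63.5% and 49% of all genes were called. Over all alternatives that left out a library, these 3 calls held. In all, 4 of the 6 pairs were called for SOX4 and the F-test called it (adjusted p = 6.2e-05), as it called 67.9% of all genes. The remaining pair, NICD2 over NICD1 by 0.31 (adjusted p = 0.047), was lost without any 1 of 11 libraries. These were all of NICD1 and NICD3, NICD2 replicates 1 and 3, NICD4 replicate 3 and EV replicates 2 and 3, with values from 0.25 to 0.37 and adjusted p up to 0.15. It was lost with the GC trend removed too (0.31, limma adjusted p = 0.061). NICD3 minus NICD2 was -0.017, with a 95% interval from -0.26 to 0.23. SOX4 transcripts have a GC content of 50.7%, and with the trend removed the differences from EV were -1.18, -0.85, -0.88 and -0.16.

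The stretch of 250 bases before the SOX4 transcription start, with the RBPJ core motif TGGGAA in capitals, is given beside that of SOX13, because these genes moved in opposite directions in NICD1, NICD2 and NICD3. Both are from RefSeq (GRCh38.p14), SOX4 at chr6:21593501-21593750 and SOX13 at chr1:204072865-204073114, each on the plus strand.
SOX4 promoter: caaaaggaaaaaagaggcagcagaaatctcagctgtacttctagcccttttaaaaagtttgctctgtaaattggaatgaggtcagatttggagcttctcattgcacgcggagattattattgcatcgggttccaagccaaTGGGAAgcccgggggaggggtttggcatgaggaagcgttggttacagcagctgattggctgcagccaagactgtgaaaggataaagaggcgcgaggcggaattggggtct
SOX13 promoter: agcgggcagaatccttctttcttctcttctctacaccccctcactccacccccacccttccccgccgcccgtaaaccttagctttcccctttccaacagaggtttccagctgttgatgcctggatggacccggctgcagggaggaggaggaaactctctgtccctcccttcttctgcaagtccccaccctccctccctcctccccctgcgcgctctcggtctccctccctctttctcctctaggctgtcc
Searched on both strands, SOX4 held 1 TGGGAA, which starts at position -110 from the transcription start, and SOX13 held 0. Of 35116 promoter windows of the same length in RefSeq, 20.8% held the motif, so that a match is a common event. The SOX12 and SOX2 windows held 0, and 1 of 5 windows of SOX6 held it. The SOX core motif ACAAT, carried by 24.6% of all windows, was not in the windows of SOX4, SOX12, SOX13 and SOX2.

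SOX12 (ENSG00000177732, chromosome 20, 306207 to 310865), the closest relative of SOX4 here and a weaker activator on its own, gave values whose direction depended on how GC content was treated. It stood at 72.8, 90.2 and 67.5 CPM in NICD1, 51.1, 41.5 and 49.3 CPM in NICD2, 65.1, 57.5 and 57.3 CPM in NICD3 and 85.0, 67.1 and 76.3 CPM in NICD4, against 57.2, 52.1 and 53.5 CPM in EV. The NICD1, NICD3 and NICD4 libraries lay above all EV libraries, the lowest NICD3 library by only a small margin, and the NICD2 libraries lay below them. The log2 difference was called in NICD1 (0.49, limma adjusted p = 0.0016) and in NICD4 (0.48, adjusted p = 0.0015), SE 0.12, but not in NICD2 (-0.20, adjusted p = 0.15) or NICD3 (0.14, adjusted p = 0.29). SOX12 transcripts have a GC content of 62.0%, in the class where the median gene was higher by 0.36 to 0.98. With the GC trend removed SOX12 differed from EV by -0.19 in NICD1 (adjusted p = 0.16), and it was called lower in NICD2 (-0.56), NICD3 (-0.39) and NICD4 (-0.45). With scaling by total reads only it was 0.034 in NICD1 and -0.061 in NICD4, neither called. No direction against EV is therefore given for SOX12.

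Between the NICD groups, SOX12 was called in 3 of the 6 pairs and by the F-test (limma adjusted p = 0.00050). The F-test called 67.9% of all genes. In the pairs NICD2 and NICD1, NICD4 and NICD2, and NICD4 and NICD3, 37.2%, 63.5% and 49% of all genes were called. NICD2 was below NICD1 by a log2 difference of -0.69 (adjusted p = 0.00073), which was -0.36 with the GC trend removed and still called (adjusted p = 0.037). NICD4 was above NICD2 by 0.69 (adjusted p = 0.00023) and above NICD3 by 0.34 (adjusted p = 0.027), and with the trend removed these were 0.085 and -0.057 and not called. The call of NICD4 over NICD3 was also lost without NICD3 replicate 2 or 3 (0.31 each) or NICD4 replicate 1 or 3 (0.25 and 0.34). NICD4 and NICD1 overlapped, with a difference of -0.0083 and a 95% interval from -0.26 to 0.24. The SOX12 span overlaps the antisense gene NRSN2-AS1, which had 450 reads against 17372 for SOX12.

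SOX2 (ENSG00000181449, chromosome 3, 181429714 to 181432221), the pluripotency and neural stem cell factor, had 4 reads in all. There were 0 in every NICD library, against 2, 1 and 1 in EV. Over a group, 0 reads allow up to 0.0631, 0.04997, 0.0461 and 0.0818 CPM in NICD1, NICD2, NICD3 and NICD4 (3 reads), while EV stood at 0.0532 CPM, so that no difference was detectable at this depth. The host transcript SOX2-OT, which spans SOX2, had 17 reads in all.

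Compared per kilobase of transcript, the balance of the family members differed between the groups. In NICD2 SOX9 had 19.9 CPM per kb, SOX4 16.6, SOX12 10.2 and SOX13 3.22. In NICD1 SOX12 had 16.6, SOX4 13.4, SOX9 13.2 and SOX13 3.86 CPM per kb, and in NICD3 SOX4 had 16.3, SOX12 12.9, SOX9 12.5 and SOX13 3.20. In NICD4 SOX4 stayed highest, at 26.9 CPM per kb, before SOX12 at 16.4, SOX9 at 15.5 and SOX13 at 2.75. In EV the mean level was 28.9 CPM per kb for SOX4, 11.7 for SOX12, 4.17 for SOX9 and 1.52 for SOX13. These are levels without a test, and they divide by the longest transcript of each gene in GENCODE 29. For SOX4 that transcript has 5852 bases, more than the 4876 bases of its span on GRCh37, where reads were counted. The SOX4 values may therefore be too low, and its place beside SOX9 in NICD2 and beside SOX12 in NICD1 is not settled.

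**Figure D3:**
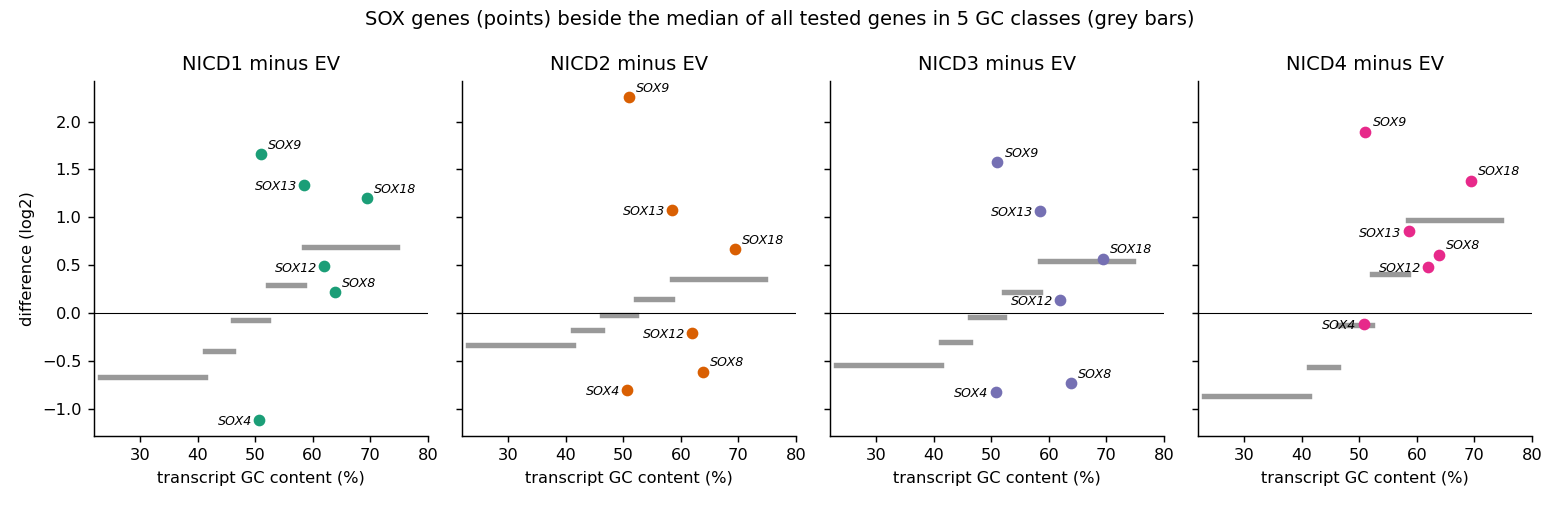
Log2 difference from EV (vertical axis) against transcript GC content in percent (horizontal axis) for 6 tested SOX genes, 1 panel for each NICD group. Grey bars span the 5 GC classes of all tested genes and stand at the median difference of each class. SOX9 lies far above the bar of its class in every panel and SOX4 below it in NICD1, NICD2 and NICD3, while SOX12 lies below its bar in all 4.

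Of 13 further SOX genes looked up, 6 had a row and 4 were tested. SOX18, an endothelial and lymphatic factor, averaged 10.7 ± 0.182, 7.53 ± 1.84, 6.90 ± 0.630 and 12.1 ± 0.453 CPM in NICD1, NICD2, NICD3 and NICD4, against 4.65 ± 0.5998 CPM in EV (SD, n = 3 each), with all 12 NICD libraries above EV. Its log2 differences of 1.20, 0.67, 0.57 and 1.38 were all called, and none was with the GC trend removed (0.083, 0.086, -0.29 and -0.14). Its transcripts have a GC content of 69.4%, and its span overlaps ZNF512B, which had 13440 reads against 2198.

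SOX8, the relative of SOX9 that shares its subgroup, averaged 10.99 ± 1.19, 6.16 ± 0.416, 5.65 ± 0.263 and 14.5 ± 1.80 CPM in NICD1, NICD2, NICD3 and NICD4, against 9.45 ± 0.962 CPM in EV (SD, n = 3 each). It was called lower in NICD2 (-0.61) and NICD3 (-0.73) and higher in NICD4 (0.61), where it was called lower with the GC trend removed (-0.47). In NICD2 and NICD3 it stayed lower with the trend removed (-1.02 and -1.34). In NICD1 its difference of 0.22 was not called (limma adjusted p = 0.12), and with the trend removed it was -0.57 and called. SOX7 had 123 reads in all, and its log2 differences were -1.22, -0.71, -1.29 and -1.55, called in NICD1, NICD3 and NICD4. Without its EV libraries SOX7 would not have passed the filter for testing, so that its falls follow in part from the filter. The calls in NICD1 and NICD3 were lost without EV replicate 2 or 3 in both groups. The NICD1 call was also lost without NICD1 replicate 2 or 3, and the NICD3 call without NICD3 replicate 1 or 3. With 1 library left out the differences ran from -1.69 to -0.86 in NICD1 and from -1.43 to -1.09 in NICD3. Its span overlaps PINX1, with 16773 reads. SOX15, with 169 reads, was called in none of the 4 groups, with intervals that reached from -1.56 to 0.86, but removal of the GC trend led to a lower call in NICD4 (-1.28, limma adjusted p = 0.035). SOX10 had 36 reads and SOX30 had 71, too few to be tested.

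The counts of the gene lists that follow stand beside 35.6%, 29.6%, 33% and 37.4% of all genes called higher and 39.8%, 29.9%, 36.2% and 43.6% called lower in NICD1, NICD2, NICD3 and NICD4. In the intestinal epithelium SOX9 is reported to lower CDX2, MUC2 and CLDN7 and to raise Paneth cell genes such as LYZ and MMP7. Of 10 such genes, 5 were tested. In NICD1, 2 were called higher and 2 lower, and in NICD2, NICD3 and NICD4, 3 were called higher and 2 lower, and with the GC trend removed the NICD1 counts were also 3 and 2. Their median log2 difference was 0.39, 1.08, 1.20 and 1.77 in NICD1, NICD2, NICD3 and NICD4. CDX2, a master regulator of intestinal identity, rose by 1.47, 1.08, 1.20 and 1.77 on the log2 scale, and CLDN7, a tight junction gene, by 2.11, 2.29, 2.04 and 2.01. MMP7, a protease of Paneth cells, averaged 0.0229, 0.710, 0.563 and 0.805 CPM in NICD1, NICD2, NICD3 and NICD4, against 0 reads in EV. It was called in NICD2, NICD3 and NICD4, and in NICD1, where it had 1 read, only removal of the GC trend led to a call (0.89, limma adjusted p = 0.044). MUC2, the goblet cell mucin, fell by a log2 difference of -2.47, -2.72, -2.93 and -2.33, and IGFBP4, a binding protein of insulin-like growth factors, by -2.52, -3.56, -2.71 and -2.61. MUC2 averaged 0.867 CPM and IGFBP4 1.42 CPM in EV, and both passed the filter for testing only through the EV libraries. MMP7 passed it only through the NICD2, NICD3 and NICD4 libraries. The falls of MUC2 and IGFBP4, the rise of MMP7 and the list counts they enter therefore follow in part from the filter.

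The cartilage genes that SOX9 activates were mostly near 0. Of 12 looked up, 3 were tested, and COL2A1 and ACAN, the defining collagen and proteoglycan of cartilage, had at most 0.329 and 0.0217 CPM on average in any group. In NICD1, 0 of the 3 were called higher and 2 lower, and in each other NICD group 1 was called higher and 2 lower. Their median log2 difference was -0.88, -1.30, -0.81 and -1.56. COL9A3 averaged 13.3, 9.83, 13.8 and 4.47 CPM in NICD1, NICD2, NICD3 and NICD4, against 24.2 CPM in EV, and COL9A2 averaged 0.847, 0.956, 1.41 and 1.22 CPM against 3.65 CPM in EV. Both fell in all 4 groups. COL11A2 was called higher in NICD2, NICD3 and NICD4 (0.60, 0.47 and 0.77), and none of these calls held with the GC trend removed, where it was called lower in NICD1 (-0.45).

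Among 8 genes reported to respond to SOX4, 6 were tested. In NICD1, 1 was called higher and 3 lower, in NICD2 2 and 2, in NICD3 2 and 2, and in NICD4 2 and 3. Removing the GC trend gave 1, 2, 1 and 1 higher and 3, 2, 1 and 3 lower. Their median log2 difference was -0.13, 0.16, -0.083 and -0.28. EZH2, the histone methyltransferase that SOX4 is reported to activate, fell by a log2 difference of -0.80, -0.57, -0.50 and -1.03 in NICD1, NICD2, NICD3 and NICD4. With the GC trend removed EZH2 was at -0.39, -0.37, -0.17 and -0.43, and its NICD3 call was lost. TUBB3, a neuronal tubulin, fell by -2.22, -2.46, -3.36 and -2.89 and averaged 1.25 CPM in EV. TUBB3 passed the filter only through the EV libraries, so that its fall follows in part from the filter. SEMA3C, a secreted guidance factor, was called higher in NICD2 and NICD3 (0.87 and 0.86), and with the GC trend removed in all 4 groups (1.17, 1.16, 1.34 and 1.10 in NICD1, NICD2, NICD3 and NICD4). DBN1, an actin-binding protein of neurons, rose by 0.55, 0.51, 0.40 and 0.82, and with the GC trend removed none of its calls held.

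Of 13 partner factors of SOX proteins, 7 were tested, and 3, 2, 3 and 3 were called higher and 4, 3, 3 and 4 lower in NICD1, NICD2, NICD3 and NICD4. Removing the GC trend left 1, 0, 2 and 1 higher and 3 lower in each group. Their median log2 difference was -0.37, -0.066, -0.21 and -0.46. CTNNB1, which codes for beta-catenin, fell by -0.84, -0.61, -0.74 and -0.84, and TCF7L2, its main partner in the intestine, by -0.73, -0.33, -0.66 and -0.80. PAX6, the eye and brain factor that pairs with SOX2, fell by -1.54, -1.18, -1.13 and -1.14. With the GC trend removed all of these stayed called but were smaller. CTNNB1 was then at -0.48, -0.44, -0.45 and -0.30, TCF7L2 at -0.51, -0.23, -0.49 and -0.44, and PAX6 at -1.06, -0.95, -0.74 and -0.46. TCF7, the gene of TCF1, rose by 0.84, 0.45, 0.70 and 1.23, and with the GC trend removed its NICD2 call was lost (0.29). GLI2, which averaged 0.62 CPM in EV, differed by 1.22, 0.73, 1.52 and 0.84, called in NICD1, NICD3 and NICD4. TCF7L1 rose by 0.69, 0.41, 0.56 and 0.79. Once the GC trend was removed, GLI2 stayed called only in NICD3 (1.03) and TCF7L1 in no group. Of 12 pluripotency and neural progenitor genes linked to SOX2, 5 were tested and 1, 2, 3 and 1 were called lower and 0, 1, 1 and 0 higher. Removing the GC trend turned these counts to 4, 3, 3 and 4 lower and 0 higher in every group. Their median log2 difference was -0.61, -0.72, -0.71 and -0.36. LIN28B, an RNA-binding protein of early development, fell by -3.32, -3.27, -2.07 and -3.71, on 0.0229, 0.0269, 0.131 and 0 CPM in NICD1, NICD2, NICD3 and NICD4, against 0.688 CPM in EV. LIN28B passed the filter only through the EV libraries, so that its fall follows in part from the filter.

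Most colorectal epithelial markers rose, as SOX9 and SOX13 did. VIL1 was called lower in NICD1 (-1.08) and NICD3 (-1.80) and was not called in NICD2 or NICD4. With the GC trend removed VIL1 was called higher in NICD4 (1.05, limma adjusted p = 0.0055). EPCAM was not called in NICD4 (-0.029). Of 10 markers 8 were tested, and 7, 7, 7 and 6 were called higher and 1, 0, 1 and 0 lower in NICD1, NICD2, NICD3 and NICD4, with 7 higher in NICD4 once the GC trend was removed. Their summed level per library was 12625 to 15691 CPM in NICD1, 9690 to 11366 CPM in NICD2, 18571 to 23367 CPM in NICD3 and 11001 to 15755 CPM in NICD4, against 2126 to 2708 CPM in EV. These sums rest mostly on KRT8, KRT18 and KRT19, which averaged 12599, 4692 and 2554 CPM in NICD3. The order of these sums was not that of SOX9, which was highest in NICD2. Of 10 astrocyte and glioma markers 5 were tested, and 1, 2, 3 and 3 were called higher and 2, 3, 1 and 0 lower (1, 1, 2 and 3 higher and 2, 3, 1 and 1 lower with the GC trend removed). Their summed level was 48.6 to 52.8 CPM in NICD1, 76.5 to 81.6 CPM in NICD2, 82.5 to 86.6 CPM in NICD3 and 63.9 to 87.4 CPM in NICD4, against 55.6 to 58.2 CPM in EV. What part the epithelial markers or the cells that carry them have in the SOX levels was not tested.

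The genes most like each SOX gene over the 15 libraries were found by Pearson's r of log2 levels, as a description of points that share 5 groups. For SOX9 they were OTUB2, a deubiquitinase gene (r = 0.99), DSP, which codes for desmoplakin (0.98), and GAS6, a ligand of the AXL receptor family (0.98). OTUB2 averaged 20.3, 31.4, 19.9 and 23.5 CPM in NICD1, NICD2, NICD3 and NICD4, against 6.94 CPM in EV, and so had the group order of SOX9. For SOX13 they were CASC8, a long noncoding RNA gene, TMC5 and BSPRY (each 0.98). CASC8 averaged 46.4, 37.5, 37.3 and 31.1 CPM in NICD1, NICD2, NICD3 and NICD4, against 14.7 CPM in EV. For SOX4 they were PAGE4 (0.96), CORO1A (0.96) and ZNF875 (0.94), and for SOX12 LRRC73 (0.97), HOMER3 and CHMP6 (both 0.96). PAGE4, a cancer-testis gene, was low like SOX4 in NICD1, NICD2 and NICD3 (0.556, 0.915 and 1.10 CPM) and high in NICD4 and EV (3.23 and 3.63 CPM).

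**Figure D4:**
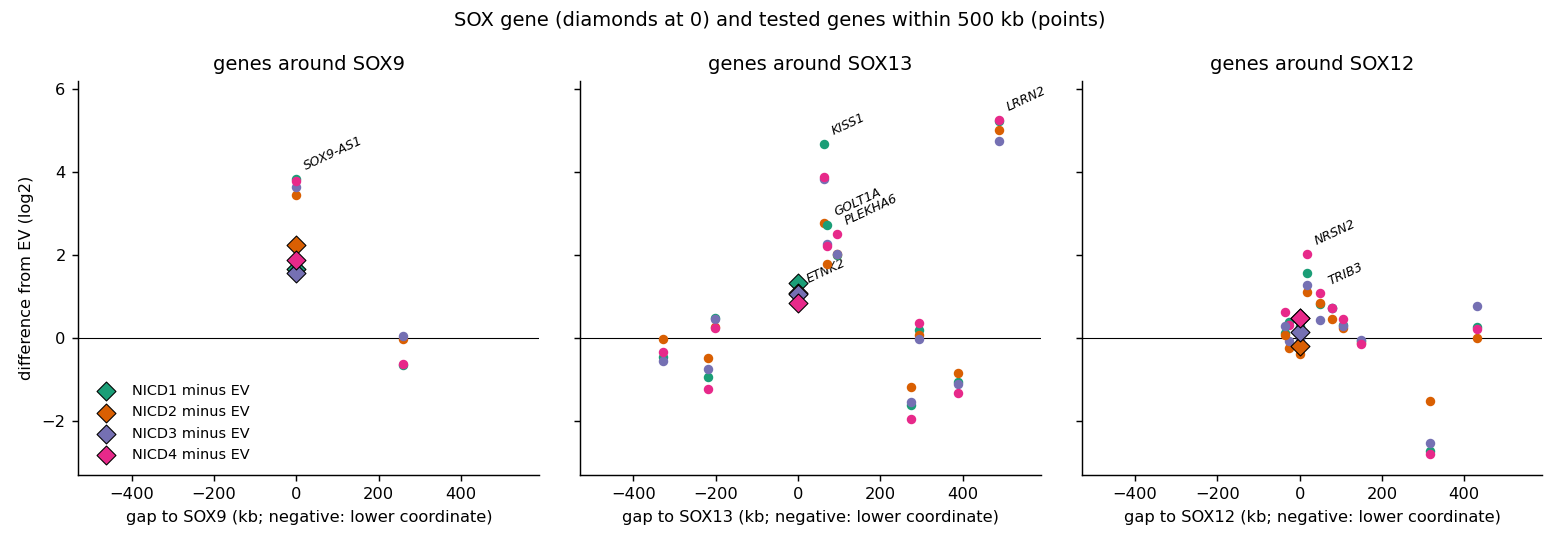
Log2 difference from EV (vertical axis) of SOX9, SOX13 and SOX12 (diamonds at 0) and of tested genes within 500 kb (points), against the gap to the SOX gene in kb (horizontal axis, negative towards lower coordinates), coloured by NICD group. Around SOX13, ETNK2, KISS1, GOLT1A and PLEKHA6 within 100 kb after it stand above 0 in all 4 groups, as does LRRN2 at 489 kb, while PPP1R15B and MDM4 between them stand below 0. SOX12 diamonds change side with the GC trend removed in NICD1, NICD3 and NICD4.

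The surroundings of the SOX genes on their chromosomes were looked at after the values were known. Within 500 kb of SOX13, 11 tested genes were looked at, and 6, 5, 6 and 6 were called higher and 4, 3, 4 and 4 lower in NICD1, NICD2, NICD3 and NICD4. Of all genes, 35.6%, 29.6%, 33% and 37.4% were called higher and 39.8%, 29.9%, 36.2% and 43.6% lower. Such counts are therefore not in themselves a result about this region. The values of neighbours are given without removal of the GC trend. ETNK2, KISS1, GOLT1A and PLEKHA6, which lie after SOX13 and within 100 kb, were each called higher in all 4 groups. ETNK2, an ethanolamine kinase gene 3.33 kb after SOX13, differed by 1.11, 1.07, 0.99 and 1.10. KISS1, the kisspeptin gene, differed by 4.69, 2.78, 3.84 and 3.88. LRRN2, 489 kb after SOX13, differed by 5.24, 5.03, 4.76 and 5.26. On the other side, ZC3H11A, 219 kb before SOX13, fell by -0.95, -0.49, -0.74 and -1.23. Around SOX9 1 gene other than SOX9-AS1 was tested, LINC00511, 258 kb after it, with differences of -0.64, -0.016, 0.044 and -0.63. Near SOX4 it was CDKAL1, 361 kb before it, with -0.39, -0.39, -0.55 and -0.21. Within 500 kb of SOX12, 10 genes were tested, and NRSN2, 16.7 kb after it, differed by 1.58, 1.11, 1.28 and 2.03, where SOX12 had no direction that held under the GC correction.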

How the data were processed

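The deposited table holds 31352 Ensembl identifiers in 15 libraries as log2 values. Per the submitters' processing notes, reads were aligned to GRCh37 with TopHat2 2.0.6 and counted with HTSeq. The authors' values were log2 of the read count plus 1: adding back gave whole reads for 100% of values within 0.001, so depth is known, at 11630195 to 27704492 counted reads a library. From these counts, TMM scaling and log2 of scaled reads plus 1 were computed. limma 3.58.1 (R 4.3.3, trended and robust prior) was fitted to all 15 libraries over the 15122 genes that passed a filter of 0.548 CPM in 3 libraries and 15 reads in all. P-values were adjusted by Benjamini-Hochberg over all of these genes, with a threshold of 0.05. Scripts were tested on simulated data. Transcript GC content, known for 97.5% of tested genes, came from GENCODE 29, and its trend was removed by loess as an alternative. Other alternatives were another scaling, filters, pseudocounts, weights, a replicate block, fits to 2 groups and leaving out each library. The members and gene lists were chosen with earlier results of these data known. Named list genes are the members, the tested SOX genes and up to 3 rises and 3 falls a list. The table holds log2 values rather than plain counts, so no count model was used. A gene near SOX13 is not reported here.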

Additional observations from a re-analysis of the deposited data

Results flagged for a closer look

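SOX8, the close relative of SOX9, is listed because its differences from EV ran in opposite directions in different NICD groups and the difference between those groups was called, in pairs where 63.5% (NICD4 and NICD2) and 49% (NICD4 and NICD3) of all genes were called. NICD4 exceeded NICD2 by 1.22 on the log2 scale (limma adjusted p = 4.2e-06, Benjamini-Hochberg over all tested genes), and exceeded NICD3 by 1.34 (adjusted p = 4.3e-06). All 3 NICD4 libraries lay above all EV libraries and all 6 NICD2 and NICD3 libraries below them. SOX8 transcripts have a GC content of 63.8%. With the GC trend removed NICD4 still exceeded NICD2 by 0.53 and NICD3 by 0.88, both called, while SOX8 was then below EV in all 4 NICD groups.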

How the results depend on the processing

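The directions of SOX9 and SOX13 against EV, and of SOX4 in NICD1, NICD2 and NICD3, held under every alternative run, and so did their calls except that of SOX13 in NICD4, 0.19 with the GC trend removed. SOX12 did not hold: with the GC trend removed it was -0.19, -0.56, -0.39 and -0.45 in NICD1, NICD2, NICD3 and NICD4, and with total reads only 0.034, -0.49, -0.28 and -0.061. Scaling by total reads moved the median of all genes by -0.46, -0.28, -0.42 and -0.54, and relative to that median SOX12 stood at 0.49, -0.20, 0.14 and 0.48. SOX4 in NICD4 was -0.66 with total reads only, and -0.24 to 0.00049 when 1 library was left out. For smaller differences, SOX12 in NICD4 minus NICD1 was 0.00041 under a filter of 1 CPM, 0.0073 with median-of-ratios scaling and -0.096 to 0.11 with a library left out, and in NICD4 minus NICD3 it was -0.057 with the GC trend removed. With a library left out, NICD3 minus NICD2 ran from -0.095 to 0.055 for SOX13 and from -0.10 to 0.051 for SOX4. SOX15 then ran from -0.57 to 0.26 in NICD1, -0.66 to 0.17 in NICD3 and -0.72 to 0.19 in NICD4. With the GC trend removed SOX18 was -0.29 in NICD3 and -0.14 in NICD4, and SOX8 was -0.57 in NICD1 and -0.47 in NICD4, while with total reads only SOX8 was -0.24 in NICD1. The cause was not tested. Without a filter, 40.1%, 42.6%, 41.6% and 39.7% of called genes were higher than in EV. The replicate numbers gave no clear pairing of the libraries. Of same-numbered pairs, 13 of 30 correlated above 0.1 (r from -0.43 to 0.36), against 19 of 60 different-numbered pairs (r from -0.40 to 0.41). Only 6 of 15 libraries correlated best with their own number. The replicate block left 4, 3, 3 and 3 SOX genes called. Depth limits SOX2 and SOX6. With 3 libraries a group, the doxycycline regime and the identity of the cells not settled by the labels, differences belong to these libraries.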
